A study of Macaca mulatta with 95 samples.

Results

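The gene set held 5 of the 16049 gene symbols measured in 95 single cells of rhesus macaque (Macaca mulatta) embryos: IHH, CXCR4, GPC3, ENPP1 and PCP4L1. They were chosen by name from values already seen in these cells, because they were high in a few late and hatched blastocyst cells that carry hypoblast markers. Their levels are therefore given as descriptions, with no test. Embryos came from oocytes of hormone-stimulated females and were grown in HECM-9 medium with serum. Outer cells were told from inner cells by a red membrane dye (PKH2) before the embryo was taken apart. Cells were taken at about day 3 (16-cell, 3 outer and 2 inner), day 4 (early morula, 5 and 5), day 4.5 (late morula, 5 and 5), day 5 (early blastocyst, 6 and 10), day 5.5 (middle blastocyst, 5 and 12), day 6 (late blastocyst, 19 inner) and day 7 (hatched blastocyst, 18 inner). The labels name no animal, embryo or culture for a cell, so the cells of a group were treated as a single sample and not as replicates. Titles carry 1 of 5 letters (A, B, D, G, H) that the labels do not explain, and letters and stages overlap: all 16-cell cells had B, all late morula cells D, and the late and hatched blastocyst cells G or H. The source names of 9 late blastocyst cells call them hatched, and 5 of those are among the trophectoderm-like cells below.

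The hypoblast, or primitive endoderm, is the layer of the blastocyst's inner cell mass that faces the cavity and gives rise to the yolk sac lining. IHH (Indian hedgehog) is a secreted Hedgehog ligand, read by cells through the receptor PTCH1, the transducer SMO and the GLI factors. CXCR4 is a G-protein-coupled receptor for the chemokine CXCL12. GPC3 (glypican-3) is a heparan sulfate proteoglycan tied to the membrane by a lipid anchor, and it binds Hedgehog and Wnt ligands. ENPP1 is a membrane enzyme that splits extracellular ATP into AMP and pyrophosphate. PCP4L1 is a small intracellular protein with an IQ motif, related to the calmodulin-binding peptide PCP4. IHH, CXCR4, GPC3 and ENPP1 thus act outside the cell or at its surface, whereas PCP4L1 does not.

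The values are taken to be RPKM, read counts scaled to gene length and sequencing depth. Levels of different genes are set side by side on that scale, but how well they compare between genes was not tested. Whole reads could be recovered from the steps between low values, with 1.68 to 14.1 megareads per cell (median 8.55) over the 12007 genes whose step could be read. A single read was worth a median of 0.0295 RPKM for IHH, 0.0306 for CXCR4, 0.0263 for GPC3, 0.00932 for ENPP1 and 0.045 for PCP4L1. Late morula cells were the shallowest, with a median of 3.33 megareads in outer and 4.75 in inner cells. Reads carry no molecular identifiers, so limits drawn from them cover counting error only.

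The 70 blastocyst cells were clustered on genes that excluded the 5 members and their pathway lists. A cluster of 4 cells, all of letter G, was hypoblast-like: late blastocyst cells G-11, G-12 and G-17 and hatched blastocyst cell G-14. In it 16 of the 20 hypoblast markers in the table were at least 1 log2 unit above the other cells. GATA4, an early endoderm factor, stood at 141, 55.7, 238.5 and 242.4 RPKM in these cells, and SOX17 at 258.7, 90.2, 218.1 and 200.8 RPKM. FOXA2 ran from 102.5 to 176.8 RPKM, and NANOG, an epiblast factor, was below 1 RPKM in all 4. The label was not met at every marker. PDGFRA, a receptor used to mark primitive endoderm, was at 0 in all 4 cells, and GATA6 was not analysed here. Another 16 cells were epiblast-like and 13 in 2 clusters were trophectoderm-like, although all late and hatched cells are labelled inner. The remaining 37 cells, of 2 clusters, stayed unnamed. Of the 12 epiblast markers that reached a mean of 5 RPKM in the hypoblast-like or epiblast-like cells, 9 were at least 2-fold lower in hypoblast-like cells, NANOG, SOX2 and POU5F1 among them. The signalling ligand NODAL and the factor ZIC2 were higher there, by 2.44 and 2.11 on the log2 scale. NODAL stood at 154.3, 0.0229, 300.9 and 704.8 RPKM in the 4 cells, and ZIC2 at 1157, 361.3, 418.5 and 10.5 RPKM. TDGF1, a NODAL coreceptor, ran from 65.8 to 404.7 RPKM and differed by -0.19.

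All 5 genes were high in hypoblast-like cells, but not in each of them: G-11 and G-12 had all 5, and each of the other cells lacked at least 1. IHH stood at 74.96 RPKM in late blastocyst G-11, 387.5 in G-12, 0.825 in G-17 and 382.3 in hatched G-14. The third of these rested on 34 reads, against 2647, 14424 and 16470 in the other cells, so the ligand was high in 3 of the 4 cells. CXCR4 stood at 488.3, 416.7, 147.7 and 0 RPKM in the same order. The hatched cell had no CXCR4 read at 14.1 megareads, the greatest depth of any cell, and 3 reads there would be 0.0721 RPKM. GPC3 stood at 145.9, 102.3, 70.24 and 898.5 RPKM, so it was present in all 4 and highest in the hatched cell. ENPP1 stood at 507.2, 105.4, 486.6 and 177.4 RPKM. It too was present in all 4 cells, and it was the one member whose lowest hypoblast-like value lay above the highest value of every other cell (32.6 RPKM). The share of all genes with such a gap is not given here. PCP4L1 stood at 80.2, 543.0, 0.444 and 2560 RPKM. G-17 therefore lacked high IHH and PCP4L1 together, whereas hatched G-14 had both at high level without CXCR4.

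**Figure D1:**
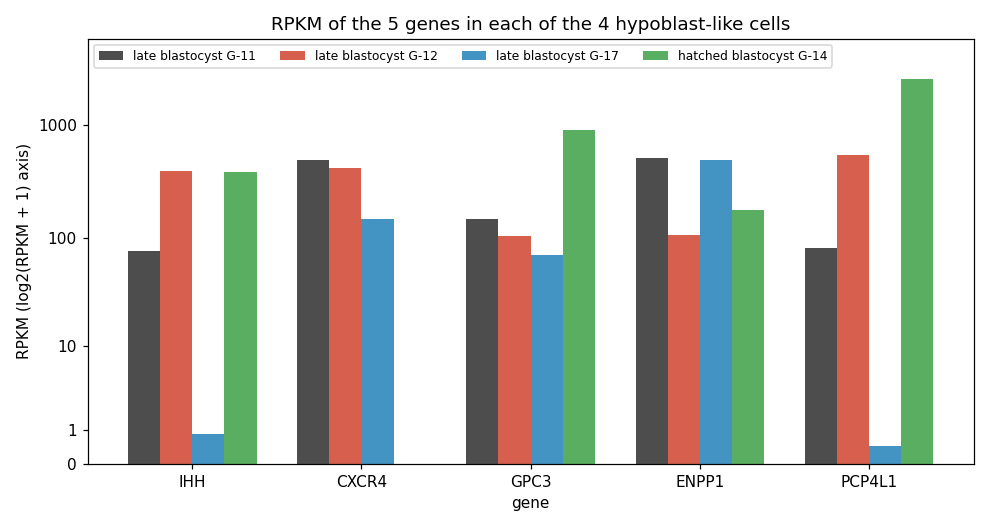
Bars give the RPKM of each gene in each of the 4 hypoblast-like cells, on a log2 axis of RPKM + 1 that starts at 0; there is 1 value per bar and no error. CXCR4 has no bar in hatched blastocyst G-14 (0 RPKM), and IHH and PCP4L1 are under 1 RPKM in late blastocyst G-17.

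Of the 20 pairs of a hypoblast-like cell and a member, 17 were at 5 RPKM or more. Among all 95 cells, 4 had 3 or more of the 5 genes at that level, and these were the hypoblast-like cells. 2 cells had 2 of the genes, 25 had 1 and 64 had none. These 4 cells held 98.9% of all IHH reads of the 70 blastocyst cells, 99.9% of CXCR4, 94.9% of GPC3, 91.5% of ENPP1 and 99.3% of PCP4L1 reads. The genes were chosen for high values in such cells, so these counts and read shares follow from the choice. They are given without the share over all genes and are no measure of how well the set marks the cluster. Their depth was 10.1, 9.89, 11.5 and 14.1 megareads, against 1.68 to 12.1 (median 8.38) in the other blastocyst cells. They had 3566 to 4448 genes at 1 RPKM or more, within the 2358 to 6859 of the others. The part of depth in the result was not tested.

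Markers of other cells the dish could hold were low in the hypoblast-like cells, with 1 exception. The summed level of 5 cumulus cell markers was 0 to 0.424 RPKM there against 0 to 958 RPKM (median 90.2) in the other blastocyst cells, and STAR, FSHR and INHA were at 0. In those other cells 99.6% of the sum came from 1 gene, CYP11A1, a steroid synthesis enzyme, and no other marker exceeded 22.5 RPKM. The 3 blood markers in the table summed to at most 0.0498 RPKM, with HBA1 and HBB at 0, and all 5 sperm markers were at 0. Of 5 fibroblast markers, COL3A1, DCN and LUM were at 0, but COL1A2, a collagen chain, reached 212.5 RPKM in late blastocyst G-12. The summed fibroblast level was 0.0238 to 212.5 RPKM in the 4 cells and 0 to 417.3 RPKM in the others.

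Against epiblast-like cells, all 5 genes were at least 2-fold higher on the log2(mean RPKM + 1) scale, where 26.1% of the 7148 genes that reached a mean of 5 RPKM in either class were 2-fold higher and 35.3% 2-fold lower. The choice of genes fixed that count, so only sizes are described. Mean IHH was 211 RPKM ± 203 (SD, 4 cells) against 0.0173 ± 0.0328 (16 cells), a log2 difference of 7.71. Mean CXCR4 was 263 ± 229 against 0.0322 ± 0.0647 RPKM, a difference of 8.00. Mean PCP4L1 was 796 ± 1200 against 0.142 ± 0.258 RPKM, a difference of 9.45, the third largest of all genes measured. GPC3 and ENPP1 differed less, and some epiblast-like cells also had them. Mean GPC3 was 304 ± 397 against 5.63 ± 22.3 RPKM, a difference of 5.53, and its ranges overlapped. Mean ENPP1 was 319 ± 208 against 7.29 ± 9.75 RPKM, a difference of 5.27, with no overlap. The IHH ranges did not overlap either, from 0.825 RPKM upward on one side and to 0.1 RPKM on the other. That lower end was 34 reads in G-17, a cell without high IHH. The genes were chosen for high values in such cells, and the share of all genes without overlap is not given here. CXCR4 and PCP4L1 overlapped through the cells that lacked them. Hatched G-14 carried much of the size for GPC3 and PCP4L1, whose differences without it were 4.01 and 7.51. Without late blastocyst G-09, the 1 epiblast-like cell with GPC3, the GPC3 difference was 8.18.

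Against trophectoderm-like cells, again 5 of 5 were at least 2-fold higher, beside 24.4% of 7127 genes higher and 35.9% lower. The log2 differences were 7.72 for IHH, 8.02 for CXCR4, 8.25 for GPC3, 8.30 for ENPP1 and 9.49 for PCP4L1. The highest trophectoderm-like value of any member was 1.19 RPKM, for PCP4L1, and mean GPC3 and ENPP1 were 0.00287 and 0.0173 RPKM. Without hatched G-14 the differences of GPC3 and PCP4L1 were 6.74 and 7.56. GPC3 and ENPP1 were thus near 0 in trophectoderm-like cells, and ENPP1 was at a low level in epiblast-like ones. Against all 66 other blastocyst cells, which include both classes, 5 of 5 were higher beside 22.6% of 7251 genes, with 36.5% lower. PCP4L1 ranked 1st, CXCR4 4th, IHH 7th, GPC3 13th and ENPP1 15th by size there, with GPC3 at 5.49 and PCP4L1 at 7.26 without hatched G-14 (7.00 and 9.19 with it) and GPC3 at 8.21 without late blastocyst G-09. These comparisons share the 4 hypoblast-like cells and are not independent of each other.

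The hypoblast-like cells all had letter G, and epiblast-like cells came from late blastocysts of letter G (7 cells) and hatched blastocysts of letter H (9 cells). Within late blastocyst cells of letter G, 3 hypoblast-like cells stood against 7 epiblast-like ones. All 5 members were again 2-fold higher (30.7% of 6569 genes were, and 34.9% were lower), by 7.27 for IHH, 8.38 for CXCR4, 2.96 for GPC3, 6.79 for ENPP1 and 7.69 for PCP4L1. GPC3 had rank 742 in this comparison, and the 1 epiblast-like cell with GPC3, G-09, is in this group; without it the difference was 6.69. Without G-12, the hypoblast-like cell of this group with most IHH and PCP4L1, those differences were 5.27 and 5.35. Against the 5 trophectoderm-like cells titled late blastocyst with letter G, the differences were 7.26, 8.40, 6.73, 8.46 and 7.35 in the same order (32.5% of 6495 genes were 2-fold higher and 35.5% lower), and without G-12 those of IHH and PCP4L1 were 5.26 and 5.02. The source names of all 5 of these trophectoderm-like cells call them hatched and those of the 3 hypoblast-like cells do not, so the stage may differ between the sides. Letter H held no hypoblast-like cell and gave no comparison.

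**Figure D2:**
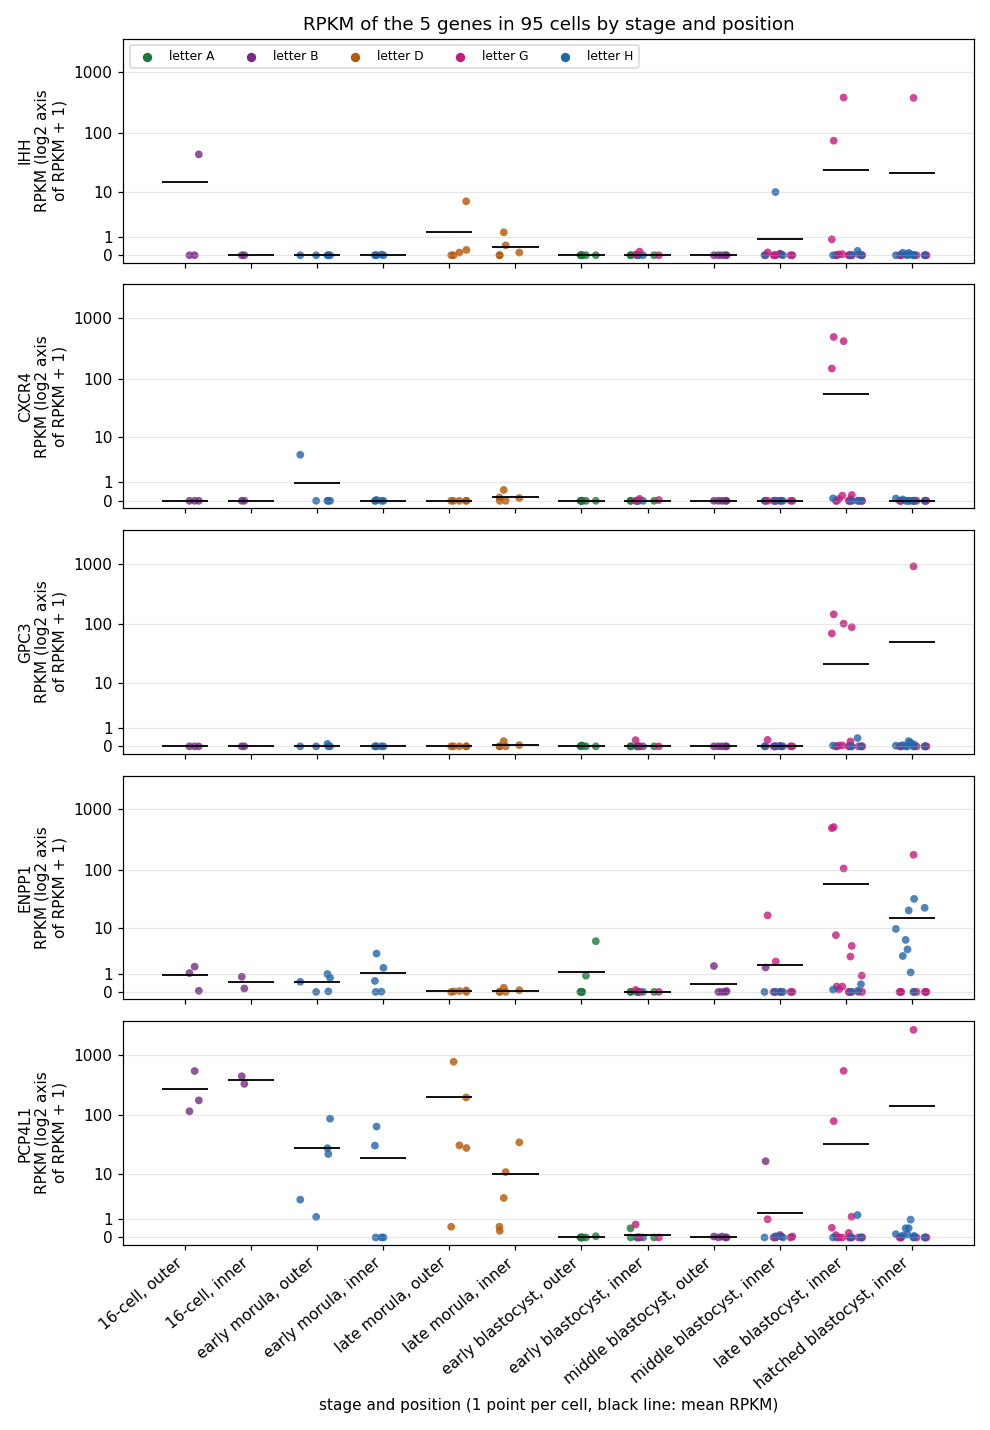
Each point is a cell, coloured by the letter in its title, and black lines are mean RPKM per group of stage and position, on a log2 axis of RPKM + 1. IHH, GPC3, ENPP1 and PCP4L1 are high in a few letter G cells of the late blastocyst and in 1 letter G cell of the hatched blastocyst. CXCR4 is high in a few letter G cells of the late blastocyst and in no hatched cell. PCP4L1 is also high in the 16-cell embryo and morula.

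IHH, the ligand, was at 0 in 69 of 95 cells. Outside the hypoblast-like cells it reached 5 RPKM in 3: outer 16-cell B-02 at 44.3 RPKM (1614 reads), inner middle blastocyst H-10 at 9.90 RPKM (343 reads) and outer late morula D-10 at 6.68 RPKM (221 reads). The other 2 outer 16-cell cells and both inner ones had none, so the value in B-02 was not shared by its group. By mean, the order ran from hatched blastocyst letter G (42.5 RPKM ± 127, SD, 9 cells) and late blastocyst letter G (30.9 ± 101, 15 cells) to outer 16-cell cells (14.8 ± 25.6, 3 cells). The next group was inner middle blastocyst letter H (2.47 ± 4.95, 4 cells), the others were lower, and 6 of the 18 groups were at 0. Neighbours in this order overlapped throughout.

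CXCR4, the receptor, was at 0 in 78 cells. It was the member with the fewest cells above 0 (17), and 13 of these had 1 to 34 reads. Outer early morula H-03 had 4.69 RPKM (163 reads), while the other 4 cells of its group had 0. No blastocyst cell outside the hypoblast-like cluster reached 5 RPKM (0 of 66), and the highest was 0.246 RPKM. By mean, late blastocyst letter G (70.2 RPKM ± 160, 15 cells) was followed by outer early morula (0.938 ± 2.1, 5 cells), and the hatched blastocyst of letter G had 0 in all 9 cells. The groups overlapped at 0.

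GPC3, the proteoglycan, had no cell between 0.366 RPKM and 70.2 RPKM. Of the 5 cells above that gap, 4 were the hypoblast-like ones and the other was late blastocyst G-09, with 89.3 RPKM (2959 reads). That cell was epiblast-like in its other genes, with NANOG at 439.8, POU5F1 at 6944, GATA4 at 0.143 and FN1 at 3.60 RPKM. Its IHH and PCP4L1 were 0, its CXCR4 0.246 RPKM and its ENPP1 4.68 RPKM. Among the 25 cells before the blastocyst the highest GPC3 value was 0.219 RPKM. By mean, hatched blastocyst letter G (99.8 RPKM ± 300, 9 cells) was followed by late blastocyst letter G (27.2 ± 49.0, 15 cells) and late blastocyst letter H (0.0985 ± 0.179, 4 cells), with overlap at each step.

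ENPP1, the ectoenzyme, was the member with a graded level outside the hypoblast-like cells. In the 9 hatched blastocyst cells of letter H, all epiblast-like, it stood at 0, 1.09, 2.89, 3.99, 6.14, 9.80, 20.8, 23.1 and 32.6 RPKM (mean 11.2 ± 11.6, SD). The cell at 32.6 RPKM rested on 2623 reads. All 8 trophectoderm-like hatched cells of letter G had 0, the level of the lowest letter H cell. Late blastocyst epiblast-like cells of letter G averaged 2.31 RPKM ± 2.89 (7 cells). Inner middle blastocyst G-04 had 17.1 RPKM (1914 reads) and outer early blastocyst A-06 had 5.79 RPKM. None of the 25 cells before the blastocyst reached 5 RPKM, and the highest was 3.26 RPKM. By mean, late blastocyst letter G (74.4 RPKM ± 174, 15 cells) was followed by hatched letter G (19.7 ± 59.1, 9 cells), hatched letter H and inner middle blastocyst letter G (4.8 ± 8.23, 4 cells), with overlap at each step.

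PCP4L1, the intracellular IQ-motif member, had 2 periods of high level. It was above 0 in 22 of the 25 cells before the blastocyst and at 5 RPKM or more in 16. Outer 16-cell cells stood at 116.9, 177.0 and 539.1 RPKM and inner ones at 442.1 and 331.1 RPKM. All 5 lay in the range of the hypoblast-like cells, but that range is wide, from 0.444 RPKM in G-17 to 2560 RPKM in hatched G-14. Outer early morula cells ran from 1.17 to 88.2 RPKM (median 22.4), and inner ones stood at 0, 0, 0, 31.2 and 65.3 RPKM. Outer late morula cells stood at 0.500, 28.4, 31.5, 197.7 and 764.6 RPKM, and inner ones ran from 0.284 to 35.4 RPKM (median 3.45). Within the outer late morula group alone, the level thus ran from below 1 RPKM to the highest value before the blastocyst. In early and middle blastocysts 1 of 33 cells, inner middle blastocyst B-02, exceeded 1 RPKM, with 16.9 RPKM. The first 2 groups in order by mean, inner 16-cell (386.6 RPKM ± 78.5, 2 cells) and hatched blastocyst letter G (284.4 ± 853, 9 cells), overlapped, as did each later pair.

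Inner cells of early and middle blastocysts were set against inner cells of the 16-cell and morula stages, with each stage given equal weight. Of the 5 genes, PCP4L1 alone had a mean of 5 RPKM on a side, and it was lower by 2-fold or more, at 0.805 RPKM, with inner middle blastocyst B-02 its highest cell, against 138.7 RPKM, a log2 difference of -6.27 (20.5% of 6579 genes were lower and 25.1% higher). Without B-02 the difference was -6.98. The other 4 had means under 1 RPKM on both sides. Stage and letter overlap here and cannot be told apart for the late morula, whose cells all have letter D.

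Outer and inner cells could be compared at the same letter in early (A) and middle (B) blastocysts. None of the 5 genes had a mean of 5 RPKM on either side of that comparison, so 0 were called, where 26.8% of 5510 genes were higher and 24% lower in outer cells. CXCR4 was at 0 in all 11 outer and 9 inner cells. The highest outer value was the ENPP1 value of 5.79 RPKM in early blastocyst A-06, and the highest inner one the PCP4L1 value of 16.9 RPKM in middle blastocyst B-02. No outer cells of late or hatched blastocysts were analysed here.

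Hypoblast transcription factors were also present in blastocyst cells outside the hypoblast-like cluster, and there the 5 genes were low. Of the 4 factors GATA4, SOX17, FOXA2 and HNF4A, 3 or more were at 10 RPKM or above in 11 other blastocyst cells. HNF4A was not particular to hypoblast-like cells, where its mean was 56.3 RPKM. It averaged 104.1 RPKM before the blastocyst (23 of 25 cells at 5 RPKM) and reached 5 RPKM in 36 of the 66 other blastocyst cells. In 2 of these 11 a member reached 5 RPKM, in both cases ENPP1, and none had 2 members at that level. Inner middle blastocyst cells G-02, G-03, G-04 and G-10 had GATA4 at 133.2, 141.1, 103.4 and 110.6 RPKM, inside the range of the hypoblast-like cells. Their ENPP1 stood at 2.16, 0, 17.1 and 0 RPKM, their CXCR4 at 0 in all 4, and their IHH and GPC3 at no more than 0.113 and 0.277 RPKM. Outer middle blastocyst B-03 had GATA4 at 309.6 and SOX17 at 599.9 RPKM with all 5 genes at 0. Inner early blastocyst A-08 had SOX17 at 1051 and the lipoprotein gene APOA1 at 4388 RPKM, also with all 5 at 0. FN1, the matrix protein fibronectin, ran from 711.2 to 2850 RPKM in the hypoblast-like cells and reached 42.9 RPKM at most in the 11.

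A comparison of the hypoblast-like cells with these 4 middle blastocyst cells of the same letter was added after their values were seen. All 5 genes were 2-fold higher in the hypoblast-like cells (28.6% of 6870 genes were, and 35.6% were lower), by 7.69 for IHH, 8.05 for CXCR4, 8.16 for GPC3, 5.79 for ENPP1 and 9.32 for PCP4L1. Without hatched G-14 the differences of GPC3 and PCP4L1 were 6.65 and 7.39, and without middle blastocyst G-04, which had 17.1 RPKM of ENPP1, that of ENPP1 was 7.54. Among the 17 hypoblast markers measured, 12 were 2-fold higher and 5 lay between, GATA4 among them. The 2 sides differ in stage, and no embryo is named for either.

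**Figure D3:**
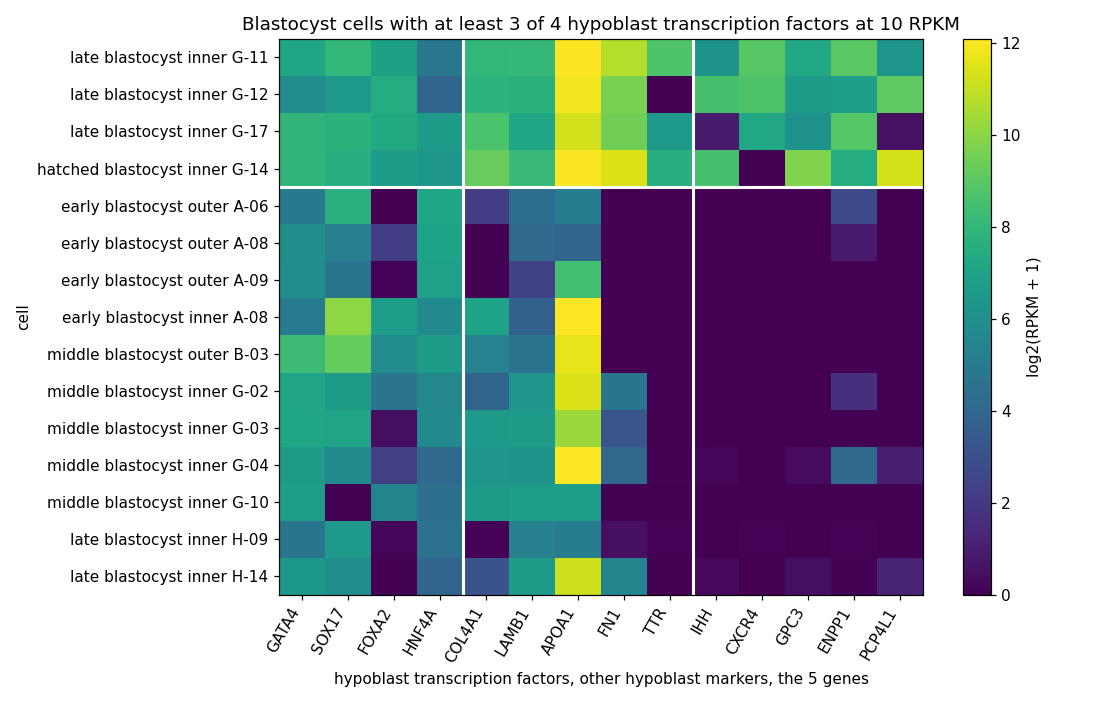
Colour gives log2(RPKM + 1) in the 4 hypoblast-like cells (above the white line) and the 11 other blastocyst cells with at least 3 of 4 hypoblast transcription factors at 10 RPKM. The factors and APOA1 are high in rows of both blocks, while FN1 is at 711.2 RPKM or more in the upper rows and 42.9 RPKM or less in the lower ones, and the 5 genes are dark below the line, apart from ENPP1 in a few rows.

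The partners of IHH were low in most cells. Of 24 Hedgehog pathway genes, 20 were in the table, and 4 reached a mean of 5 RPKM in hypoblast-like or epiblast-like cells: CDON and HAND1 were 2-fold higher and SMO and BMP4 2-fold lower in hypoblast-like cells (list median 0.0226 log2). The counts of this list and of those that follow stand beside 26.1% of all genes 2-fold higher and 35.3% lower against epiblast-like cells (median -0.211), and 24.4% and 35.9% against trophectoderm-like cells (median -0.282). HAND1 rested on hatched G-14, with 34.9 RPKM against at most 0.0576 RPKM in the other 3 hypoblast-like cells. BMP4 rested on hatched letter H cells H-05 and H-07 (56.4 and 57.9 RPKM), and it was at 0 in all 7 late epiblast-like cells of letter G. SMO, which passes the signal on, stood at 0, 15.5, 15.1 and 0.0387 RPKM in the 4 cells and at a mean of 26.8 RPKM ± 30.7 in the 16 epiblast-like ones, where 10 reached 5 RPKM. PTCH1, a receptor and a target of the pathway, was at most 25.6 RPKM in any cell, and in the hypoblast-like cells its mean was 0.00506 RPKM. In epiblast-like cells PTCH1 averaged 4.53 RPKM ± 7.72, with 5 of 16 at 5 RPKM or more. Late epiblast-like cells of letter G averaged 7.29 ± 10.3 (3 of 7 at that level), and trophectoderm-like cells 2.79 ± 5.59 (4 of 13). CDON, a coreceptor, stood at 6.75, 0, 20.5 and 0.00596 RPKM. The other ligand genes SHH and DHH were at 0 in the hypoblast-like cells, and GLI1, a transcription factor and target of the pathway, was listed at 0 in all 95 cells. Against trophectoderm-like cells 3 genes of the list were measured, with SMO higher and HAND1, a trophoblast transcription factor, lower (median 0.907).

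CXCL12, the ligand of CXCR4, was near 0 in the hypoblast-like and high in the epiblast-like cells. It was at 0, 0.0533, 0.0241 and 0.0921 RPKM in the hypoblast-like cells and between 20.7 and 199.0 RPKM (mean 80.9 ± 53.8) in every epiblast-like cell, with no overlap. Trophectoderm-like cells had at most 0.149 RPKM. CXCR7, an older symbol of ACKR3 for a CXCL12 scavenging receptor, stood at 1.75, 13.9, 5.30 and 0.494 RPKM in the 4 cells and at 0 in all 16 epiblast-like cells. Of the 15 chemokine genes present, 9 were measured in that comparison, of which CXCR7, GNAI3 and GRK6 were 2-fold higher and CXCL12, MIF, GNAI1 and ARRB2 lower (median -0.708). GNAI3, an inhibitory G-protein subunit, stood at 212.6, 0.127, 118.7 and 90.6 RPKM. Against trophectoderm-like cells 4 of 7 were higher and 1 lower (median 1.25), where 24.4% of all genes were higher and 35.9% lower.

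Genes for heparan sulfate and other glypicans showed no common direction. Of the 17 present, 9 were measured against epiblast-like cells, with EXT1 and NOTUM 2-fold higher and NDST2, HS2ST1 and PIGA lower (median 0.636). EXT1, which builds the heparan sulfate chain, stood at 182, 79.6, 36.2 and 62.2 RPKM, against a mean of 11.9 RPKM ± 15.0 in epiblast-like cells, whose highest was 51.3. NOTUM, which can release glypicans and inactivates Wnt ligands, was at 21.8 RPKM in G-12 and at or near 0 in the other 3. GPC4, another glypican, reached 75.8 RPKM in G-11 and was at or near 0 in the other 3 hypoblast-like cells. SDC4, a transmembrane proteoglycan, was broad, with a mean of 100.3 RPKM ± 60.03 in hypoblast-like, 64.2 ± 59.3 in epiblast-like and 50.4 ± 37.7 in trophectoderm-like cells. Against trophectoderm-like cells 3 of 7 were higher and 3 lower (median 0.979).

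Beside ENPP1, the phosphatase ALPL, which breaks down the pyrophosphate that ENPP1 makes, was also high. It stood at 145.5, 559.6, 381.2 and 176.5 RPKM in the hypoblast-like cells, at a mean of 54.3 RPKM ± 66.8 in epiblast-like cells and at most 3.29 RPKM in trophectoderm-like ones. Its highest epiblast-like value, 195.0 RPKM, overlapped the hypoblast-like range. ANKH, a pyrophosphate exporter, was at 31.4 RPKM in G-11 and near 0 in the others. NT5E, the enzyme that turns AMP into adenosine, was listed at 0 in all 95 cells. Of the 18 listed genes present, 6 were measured against epiblast-like cells, with ALPL and ANKH higher and SLC29A1 and PPA1 lower (median -0.417). Against trophectoderm-like cells ALPL alone was higher and 3 of 6 were lower (median -0.410).

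PCP4, the relative of PCP4L1, was listed at 0 in all 95 cells. Of 8 genes of the calmodulin list 4 were measured against epiblast-like cells, none was 2-fold higher and CAMK2G was lower (median 0.159). The same count held against trophectoderm-like cells (median -0.419).

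**Figure D4:**
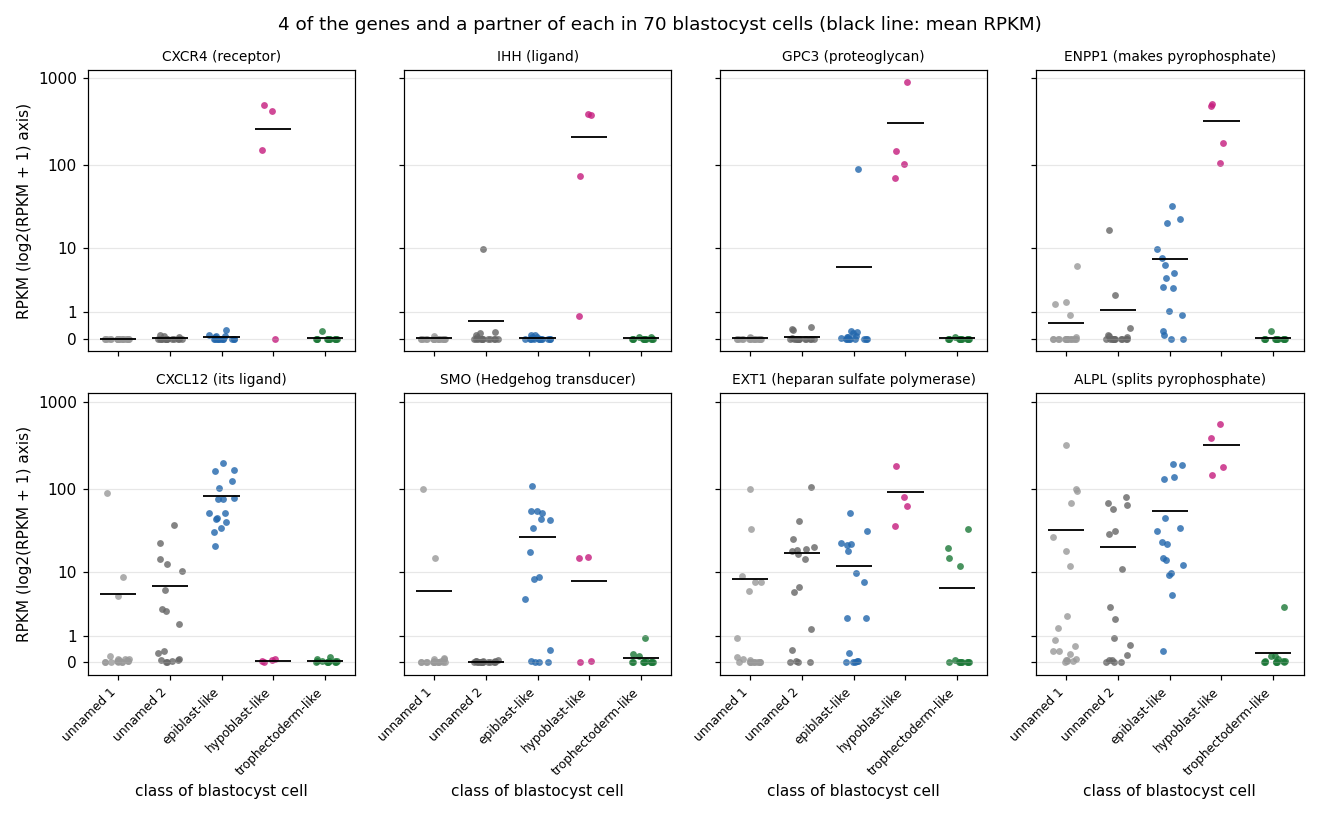
Each point is 1 of 70 blastocyst cells, black lines are mean RPKM per class, and the axis is log2 of RPKM + 1; the upper row shows 4 of the genes and the lower row a partner of each. CXCL12 lies between 20.7 and 199.0 RPKM in epiblast-like cells, where CXCR4 is at most 0.246 RPKM, and ALPL is at 145.5 RPKM or more in all 4 hypoblast-like cells.

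The genes with the most similar pattern were ranked by Pearson r of log2(RPKM + 1) over the 70 blastocyst cells, among 7960 genes at 10 RPKM or more in at least 5 of them. A gene high in the 4 hypoblast-like cells alone could not enter this pool, and IHH, CXCR4 and PCP4L1 were themselves outside it. The ranking therefore names the nearest genes of the pool, not of the whole table. GPC3 ranked first for IHH (0.81) and for PCP4L1 (0.79). WNT11, a secreted Wnt ligand, was among the 5 nearest genes of all 5 members, with r of 0.76 for IHH, 0.80 for CXCR4, 0.82 for GPC3, 0.72 for ENPP1 and 0.71 for PCP4L1. It averaged 53.5 RPKM ± 27.2 in the hypoblast-like cells and 0.289 RPKM in the rest. TFPI, a coagulation inhibitor, was near IHH, GPC3, ENPP1 and PCP4L1, and the retinaldehyde dehydrogenase ALDH1A1 near IHH, GPC3 and PCP4L1. The nearest genes of CXCR4 were the retinoic acid hydroxylase CYP26A1 (0.84), the retinoic acid binding protein CRABP2 (0.83) and APOBEC2 (0.82), with HHEX (0.78), an endoderm factor, in the fifth place. CYP26A1 stood at 283.4, 1311, 890.4 and 0 RPKM and HHEX at 535.0, 766.6, 91.9 and 0 RPKM, so both lacked a value in hatched G-14, as CXCR4 did. IHH was also near the iron exporter SLC40A1 (0.78), as was PCP4L1 (0.78).

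ENPP1 was nearest to FN1 (0.88). Outside the hypoblast-like cells, ENPP1 and FN1 had an r of 0.68 over the other 66 cells. The r of ENPP1 and ADD3, a membrane skeleton protein, changed less, from 0.71 over 70 cells to 0.63 over 66. For the other 23 of 25 member and gene pairs r without the 4 cells lay between -0.0633 and 0.219. Between the members themselves, IHH and PCP4L1 had the highest r (0.92 over 70 cells), above that of any pool gene with either. The median of the 10 pairs was 0.69. Without the 4 hypoblast-like cells that median was -0.00246, and the highest r was that of CXCR4 and GPC3 (0.64). That value rested on late blastocyst G-09, which had the highest level of both genes among the 66 cells, with CXCR4 at 0.246 RPKM from 7 reads, and without G-09 it was 0.075. Before the blastocyst IHH and PCP4L1 had an r of 0.25 over 25 cells. These coefficients describe cells that differ in stage, letter and depth, while cells of a group share stage and letter. The part of each in r was not tested.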

How the data were processed

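The authors deposited 1 table of RPKM values for 16049 gene symbols in 95 cells. The table does not name its unit: RPKM (reads per kilobase and per megaread) was read from the values, whose low entries are whole multiples of a gene factor times a cell factor. Per the labels' protocols, complementary DNA was poly(A)-tailed, amplified by PCR and sequenced as 100-base single-end reads. Per the submitters' processing notes, FastQC, TopHat2 2.1.0, HTSeq and DESeq2 were used, with no role given for each. No coordinates are printed: the genome build is not given in the sources used here. PCR copies of 1 molecule cannot be told from separate molecules, so low values may rest on few transcripts.

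The members and lists were chosen with earlier results of these data known. Differences are of log2(mean RPKM + 1) between groups of cells, called at 2-fold with a mean of at least 5 RPKM on either side. Cells are not replicates, so no groups were tested against each other, SDs are over cells, and Dixon's criterion only picked cells to describe. Reads were recovered with a tolerance of 0.05 reads for 12007 genes (74.8%), with the 5 members' values all whole. The 70 blastocyst cells were clustered (Ward, 10 principal components of the 1000 most variable of 7960 genes, members and pathway lists left out). The design set 5 clusters, but at 5 the hypoblast-like cluster also held 5 late blastocyst cells with trophectoderm markers, so 6 were used, a choice made after seeing the data. A cluster was named where at least 50% of a lineage's markers were 1 log2 unit above other cells and its top 10 genes held no more markers of another lineage. No caller for doublets was run, since cells were picked singly under a microscope per the labels. Named genes were the 5 members, listed pathway genes and lineage markers, and the 5 genes nearest to each member. The calls and the read recovery were run on simulated data. For the calls, the simulated cells varied less than these cells do and the changes were larger than 2-fold. That run therefore does not measure how reliable the calls are here. Python 3.11.15, numpy 2.4.6, pandas 2.3.3 and scipy 1.17.1 were used. Alternatives covered the pseudocount, minimum mean, scale, depth weighting, median, clustering, letters, stage labels and leaving out cells. Protein and promoter sequences were not used here.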

Additional observations from a re-analysis of the deposited data

Results flagged for a closer look

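Dixon's criterion was applied to the highest and lowest cell of 15 combinations of gene and group, and 4 stood apart. It serves here as a description of gaps: its rate of about 1 in 20 by chance holds for normally spread replicates, and these cells are neither replicates nor normally spread, with most values at or near 0. IHH was 6.68 RPKM in outer late morula D-10, with the next cell of the 5 at 0.222 RPKM. CXCR4 was 4.69 RPKM in outer early morula H-03, with the other 4 cells at 0. ENPP1 was 5.79 RPKM in outer early blastocyst A-06, with the next of the 6 cells at 0.845 RPKM. ENPP1 was 1.66 RPKM in outer middle blastocyst B-02, with the next of the 5 cells at 0.0325 RPKM.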

How the results depend on the processing

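No paired analysis was possible because the results come from no test and the labels tie no cells of different groups together. The count of members 2-fold higher in hypoblast-like cells was 5 of 5 against epiblast-like, trophectoderm-like and all other blastocyst cells under every alternative run, and 5 to 5 when each hypoblast-like cell was left out in turn. The choice of genes fixed this count, so its steadiness is no support for the set. Of all genes measured, 26.1%, 24.4% and 22.6% were 2-fold higher, in the same order. The count of members 2-fold higher was 0 in the comparisons of stage and of position. It stayed at 0 when each of the 12 inner 16-cell and morula cells, or each of the 9 inner cells of the position comparison, was left out in turn. The other side of either comparison was not left out cell by cell. With 4 clusters no hypoblast-like cluster was named, so that setting gave no value. With 5 clusters, or 4 for late and hatched cells alone, the hypoblast-like cluster held 9 cells, and the 5 added had no member at 5 RPKM. The median r between members (0.69) was 0.57 over all 95 cells, 0.51 as Spearman's rho and -0.00246 without the 4 hypoblast-like cells. Of the values for single genes and 1 gene pair, 515 moved by less than the spread and 61 by more, and no called difference changed direction. Differences too low to be called changed sign in 5 cases, the furthest being ENPP1 between stages, 0.30 with all letters and -0.68 with letters B and H alone. Without hatched G-14 the log2 difference of GPC3 against epiblast-like cells was 4.01 and that of PCP4L1 7.51, while without late blastocyst G-09 that of GPC3 was 8.18, an alternative added after seeing the data. The cause was not tested. Depth limits statements on zeros to the level of 3 reads, at most 0.619 RPKM for PCP4L1 and less for the other 4 genes.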

Other observations

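Some genes had over 95% of their reads, and at least 2000 reads, in a single hypoblast-like cell, and reads of these genes in other cells were counted after the data were seen. For hatched blastocyst G-14 there were 6 such genes (EVI2A, NDNF, NRCAM, PRSS35, RASGRP3 and RBM20) with 35295 reads. Of the other 94 cells, 5 had reads of 2 or more of them and 85 cells had none. Those 5 were outer late morula D-05 (7 reads), inner early blastocyst G-13 (6 reads), inner middle blastocyst G-04 (8 reads), inner late blastocyst H-14 (14 reads) and inner hatched blastocyst H-11 (3 reads). CXCR4, which G-14 lacks, had 0 reads in all 5, while their GPC3 reads were 0, 10, 11, 16 and 6 and their PCP4L1 reads 192, 14, 23, 34 and 22. CXCR4 was at 0 in 78 of all 95 cells, so its absence from these 5 does not set them apart. The PCP4L1 level of D-05, 31.5 RPKM, was the median of the outer late morula cells. For late blastocyst G-12 there were 5 such genes (ADAMTS19, AKR1D1, RFX6, SMLR1 and ZNF540) with 20307 reads. Inner late morula D-04 had reads of all 5 (23 reads), with 28 IHH, 10 CXCR4, 5 GPC3, 11 ENPP1 and 46 PCP4L1 reads. Inner hatched blastocyst H-07 had reads of 2 of them (5 reads), with 4 IHH, 2 CXCR4, 2 GPC3 and 2 PCP4L1 reads beside 366 ENPP1 reads. The source of these low read counts was not tested.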
